A study of Mus musculus with 3 samples.

Results

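CD133+ cells of the control library were compared with CD133+ cells of the young library, which are both from mice of 3 months in their labels. Of the 10869 control and 8362 young cells deposited, 9780 and 7521 were kept, so that 17301 of 19231 cells entered the comparison, out of 29828 cells in the whole series with its old library. Cells were kept with at least 200 genes, at most 20% of UMIs from mitochondrial genes and a UMI total between the 5th and the 95th percentile of their own library. A unique molecular identifier (UMI) marks 1 captured mRNA molecule, so that PCR copies of it are counted once. The study sorted CD133+ cells, which it names endothelial-like cells (ELCs), from bone marrow by FACS and sequenced 3 libraries with the droplet-based Chromium 3′ kit, with the cells of 3 mice pooled in each. The strain of both libraries is C57BL/6 in the labels, which give neither a genotype nor a treatment for either and do not say what the control library is a control for. The study describes a first profile of CD133+ cells, from C57BL/6N mice and with the cell number of the control library, apart from its comparison of young with old mice. The old library, with an age of 27 months in its label and another age in the design text of the series, was processed in the same way and its levels are given beside the others for orientation. Because each condition is 1 library of pooled mice, the spread between mice cannot be measured, no test was made, and a difference between libraries cannot be told apart from one between mice, sorts or library preparations.

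CD133 is a membrane glycoprotein encoded by *Prom1*, used to mark stem and progenitor cells in several tissues. The bone marrow is the site where neutrophils mature from promyelocytes, which make the azurophil granule proteins such as myeloperoxidase (*Mpo*) and elastase (*Elane*), through precursors that fill specific granules, to cells that make gelatinase granules and leave for the blood. Type I and type III interferons signal through the kinases JAK1 and TYK2 to a complex of transcription factors with IRF9, which binds an interferon-stimulated response element (ISRE) in the promoters of antiviral genes. Such genes encode sensors, nucleases and ubiquitin-like modifiers, and many cells of the blood lineage hold some of them at a basal level.

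The kept cells held 95980225 UMIs in control and 71505883 UMIs in young, with a median of 9560.5 and 9720 UMIs and of 1947 and 2012 genes per cell. The median mitochondrial share was 1.31% in control and 1.19% in young, and the 10 most abundant genes took 38.8% and 37.1% of the UMIs. Between the cells deposited for control and young, 125 barcodes were shared. Levels are given as CPM, for which the UMIs of a gene were summed over cells, divided by the UMI total of those cells and multiplied by 1000000. A single UMI was worth 0.0104 CPM in control and 0.0140 CPM in young. Ratios are given as the log2 of control over young with exact 95% intervals, which cover counting error only. *Prom1* was detected at 52.6 CPM in control, 43.3 CPM in young and 46.5 CPM in old, a log2 ratio of 0.28 (0.22 to 0.34). The 6 endothelial markers tried had together 1.92 CPM in control and 5.23 CPM in young. They had 1.68 and 2.11 CPM once cells with markers of another blood cell type, defined below, were left out. Of these markers, over all kept cells, *Cdh5*, the endothelial cadherin, had 3 UMIs in control and 37 UMIs in young, and *Tek* had 0 UMIs in control and 1 in young. The study describes CD133+ cells, as a cluster in published data of whole marrow, as hardly expressing this cadherin. It also states that VEGFR2, encoded by *Kdr*, one of the 6 markers, was high in CD133+ cells. Its evidence for endothelial potential was the ordering of transcriptomes, lipoprotein and lectin uptake, tube formation and tracing of donor cells. None of that evidence was examined here. The 5 promyelocyte markers had together 14071 and 14063 CPM, and the 5 neutrophil precursor markers 131098 and 121845 CPM. RNA of these neutrophil lineage markers was thus abundant in both libraries, but the cells of this lineage were not counted.

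The young library stood apart from the control and the old library in the cells that carried markers of another blood cell type. A cell was counted as such with at least 2 detected markers and at least 4 UMIs of 1 of 8 types, or with at least 1% of its UMIs from erythroid markers. By this count 836 young cells (11.1%, exact binomial interval 10.4 to 11.8) were other blood cells, against 108 control cells (1.10%, 0.907 to 1.33) and 120 old cells (1.26%). In young, 547 cells (7.27%) carried monocyte markers, 206 (2.74%) dendritic cell markers, 146 (1.94%) B progenitor markers, 69 (0.917%) NK and T cell markers and 68 (0.904%) basophil and mast cell markers. The corresponding numbers in control were 51, 31, 20, 2 and 17 cells. The summed level of the 7 monocyte markers was 20.4 CPM in control and 227 CPM in young, and became 7.41 and 27.1 CPM once the other blood cells were left out. The counts over all genes and over the main lists below are therefore also given without these cells.

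**Figure D1:**
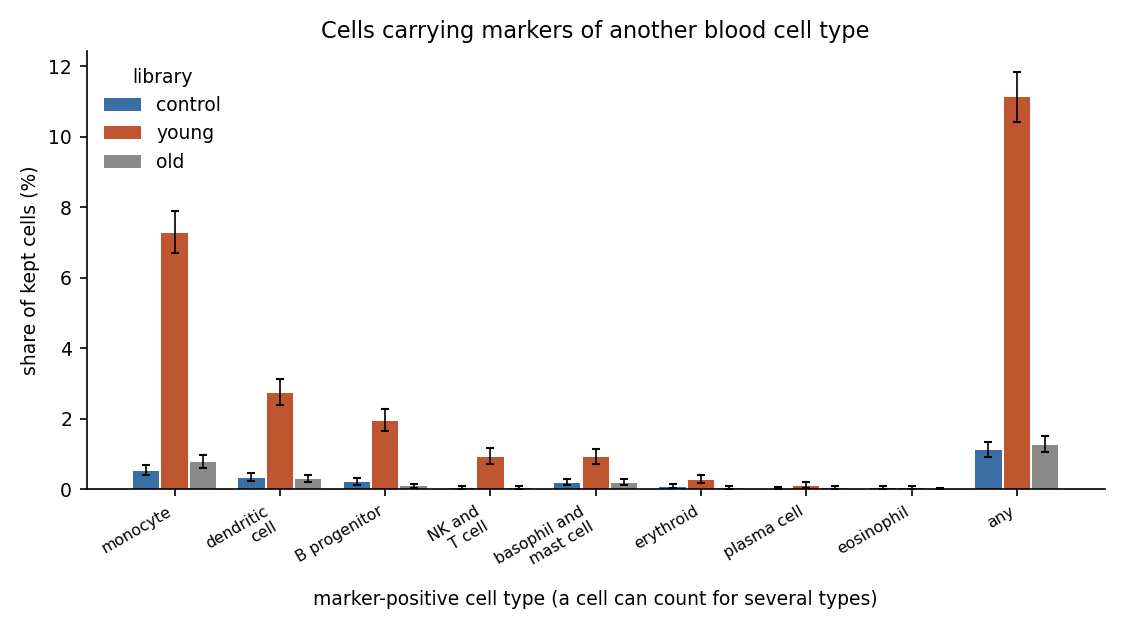
Share of kept cells (%, y axis) that carried markers of each of 8 other blood cell types or of any of them (x axis) in the control, young and old library, with exact 95% binomial intervals as error bars. Monocyte markers marked 7.27% of young and 0.521% of control cells, and any type marked 11.1% and 1.10%.

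Haemoglobin RNA was also higher in young, and not only in the cells counted as erythroid. The 7 erythroid markers summed to 225 CPM in control and 780 CPM in young, and to 34.8 and 141 CPM without the other blood cells. In the cells that remained, at least 1 UMI of *Hbb-bs*, a beta globin that neutrophil precursors do not make, was found in 4.25% of control and 15.2% of young cells after each cell was thinned to 3000 UMIs (11.7% and 37.6% unthinned). The part of free RNA in the differences below was not tested. The 15.2% holds for *Hbb-bs* only and sets no background for other genes, whose levels in free RNA are not known.

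Cells were further divided into bands by their *Mpo* UMIs per 10000 UMIs, namely high (at least 40), middle (10 to under 40) and low (under 10). In control 1474 cells (15.1%, 14.4 to 15.8) were in the high band, 1144 (11.7%, 11.1 to 12.4) in the middle band and 7162 (73.2%, 72.3 to 74.1) in the low band. In young, the bands held 1332 (17.7%, 16.9 to 18.6), 637 (8.47%, 7.85 to 9.12) and 5552 cells (73.8%, 72.8 to 74.8). The low band thus took nearly the same share, whereas the high band was smaller and the middle band larger in control. With band edges at 20 and 80 the high band held 6.74% of control and 11.4% of young cells. Median UMI totals per cell in the high, middle and low band were 12677, 11482 and 8914 in control and 11952.5, 11971 and 8873 in young. Other blood cells made up 7.43% of the young high band, 7.54% of the middle and 12.4% of the low band, and at most 1.40% of any control band.

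Over all kept cells, 5725 genes had at least 10 CPM in either library. Of these, 104 (1.82%) were higher in control and 383 (6.69%) lower in control by at least 1.5 times, so that 21.4% of the genes past this limit were higher. Without the other blood cells 159 genes (2.86% of 5559) were higher and 215 (3.87%) lower, and the share of higher genes became 42.5%. The median log2 ratio of all genes tested was -0.05 with all cells and 0.00 without the other blood cells. Of the 104 higher genes, 42 were past the limit in each of the 3 bands, and 98 stayed past it without the other blood cells. Of the 383 lower genes, 376 had the same direction in each band, 260 were past the limit in each, and 276 stayed past it without the other blood cells. The same direction in each band was found for 3696 of the 5725 genes tested. In the high band 327 genes (5.17% of 6329) were higher and 457 (7.22%) lower in control, in the middle band 288 (4.9% of 5874) and 362 (6.16%), and in the low band 80 (1.48% of 5409) and 437 (8.08%). Without the other blood cells the high band had 362 higher (5.74%) and 436 lower genes (6.92%), the middle band 379 (6.54%) and 306 (5.28%), and the low band 119 (2.3%) and 194 (3.75%). The low band had the smallest share of genes higher in control both with and without the other blood cells. Without these cells it also had the smallest share of lower genes. The bands differ in depth, with 65638339 UMIs in control and 49248312 in young in the low band, against 12476900 and 7082135 in the middle band. The part of counting error in these shares was not tested.

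**Figure D2:**
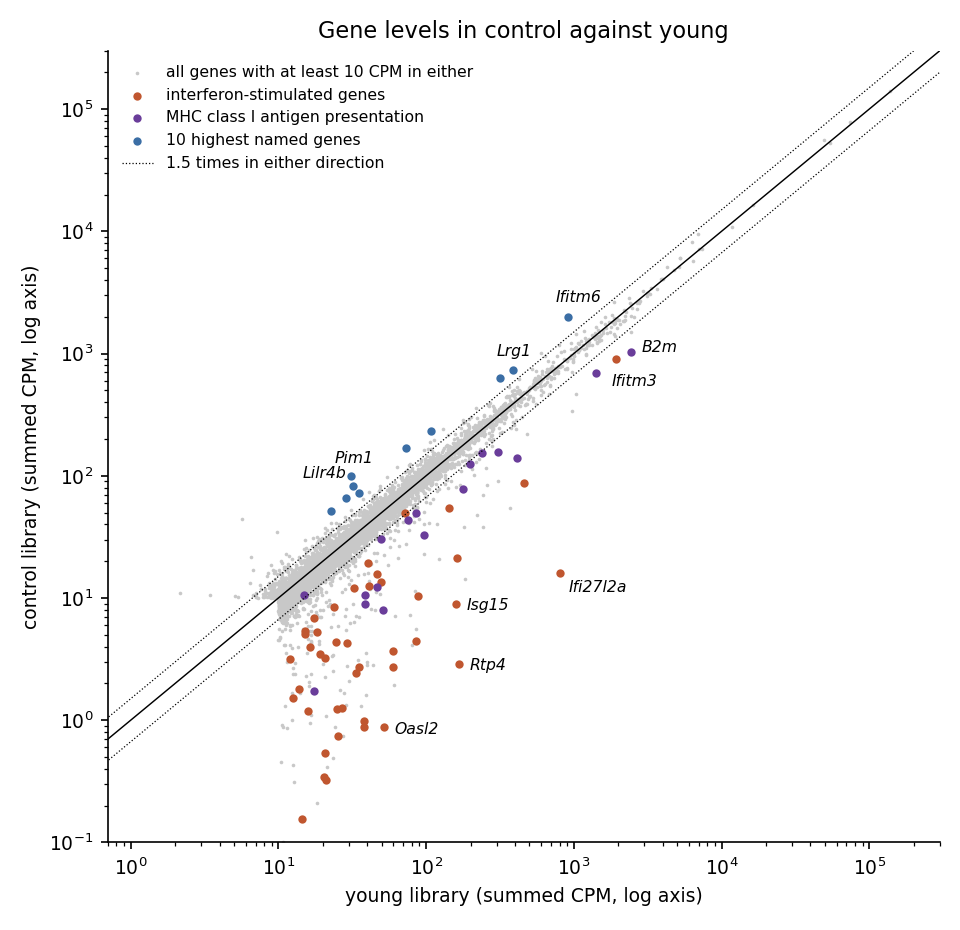
Summed CPM of each gene with at least 10 CPM in either library, in young (x axis, log scale) and control (y axis, log scale), with the interferon-stimulated genes, the MHC class I genes and the 10 highest named genes coloured and dotted lines at 1.5 times. The coloured interferon-stimulated and MHC class I genes lie below the diagonal, *Ifi27l2a* with 812 CPM in young and 15.9 CPM in control.

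The 10 lowest ratios were taken over genes that reached 50 CPM in control or young and lay on 1 side of 0 in each band. They belonged to *Oasl2*, *Rtp4*, *Ifi27l2a*, *Ms4a4c*, *Xaf1*, *Ctss*, *Irf7*, *Isg15*, *Zbp1* and *Ms4a6c*. Each of the 10 reached 50 CPM only through young and had at most 15.9 CPM in control. Of the 10, 7 were on the list of interferon-stimulated genes, which held 43 of the 5725 genes with at least 10 CPM. *Oasl2*, a member of the 2′-5′ oligoadenylate synthetase family, had 0.875 CPM in control, 51.5 CPM in young and 1.43 CPM in old, a log2 ratio of -5.88 (-6.21 to -5.57). *Rtp4*, an interferon-induced chaperone of receptor transport, had 2.88 CPM in control, 168 CPM in young and 3.79 CPM in old (-5.87, -6.05 to -5.70). *Ifi27l2a*, encoding a small membrane protein, had 15.9, 812 and 7.56 CPM in control, young and old (-5.68, -5.75 to -5.60). For these 3 genes young stood far above both the control and the old library. *Irf7*, the transcription factor that amplifies type I interferon, had 4.46 CPM in control against 84.8 CPM in young (-4.25). *Isg15*, the ubiquitin-like modifier conjugated to proteins after interferon, had 8.92 against 159 CPM (-4.16), and *Zbp1*, a sensor of Z-form nucleic acids, 3.67 against 59.95 CPM (-4.03). These 6 ratios stayed between -5.87 and -3.67 without the other blood cells.

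Of 55 interferon-stimulated genes listed, 54 were in the files and 43 had at least 10 CPM in either library. Of the 43 genes, 42 were lower in control by at least 1.5 times, beside 6.69% of all genes tested, with a median log2 ratio of -2.93. Most of these genes reached the minimum only through young. Among the 12 that had at least 10 CPM in control, 11 were lower past the limit, beside 3.27% of all genes with that level in control. Of the 54 genes in the files, each had a ratio below 0, and 52 were past the limit, beside 27.8% of all genes with any UMI. The 1 gene with at least 10 CPM that was not past the limit was *Samd9l* (-0.55, -0.60 to -0.49). Others were the surface protein *Bst2*, also named tetherin, which keeps budding virions on the cell (21.4 against 162 CPM, -2.93), and the GPI-anchored *Ly6e* (87.0 against 459 CPM, -2.40). *Ifitm3*, the most abundant member and a restriction factor of viral entry, was also lower in control (898 against 1928 CPM, -1.10), but here the old library had 1840 CPM, close to young. The median of the list was -2.15 in the high band, -2.90 in the middle and -3.16 in the low band, and -2.53, with 36 of 37 genes lower, without the other blood cells. The summed level of the list was 1316 CPM in control and 5072 CPM in young, and 1291 and 4129 CPM without the other blood cells.

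**Figure D3:**
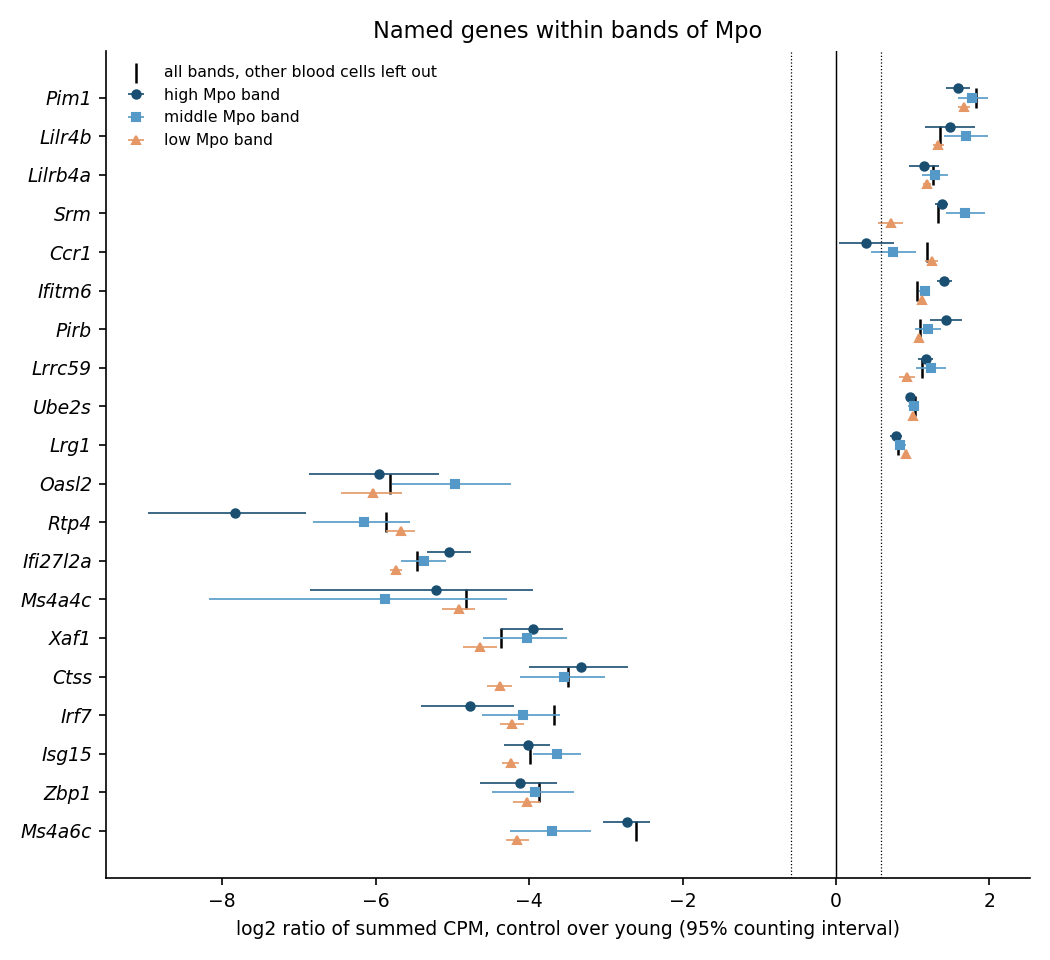
Log2 ratio of control over young (x axis) for the 10 highest and 10 lowest named genes (y axis) in the high, middle and low *Mpo* band, with 95% counting intervals, and over all bands without the other blood cells (vertical bars). Each gene lies on the same side of 0 in the 3 bands because this was required for naming it. *Rtp4* runs from -7.83 in the high band to -5.67 in the low band.

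To see how the interferon-stimulated UMIs were spread over cells, each cell was thinned to 3000 UMIs, and *Ifitm3*, the most abundant gene of the list, was left out. The median cell then had 1 UMI of the list in control (5th to 95th percentile 0 to 4) and 7 UMIs in young (2 to 39), while the old library had a median of 1. No UMI of the list was found in 33.8% of control cells and 0.758% of young cells. At full depth the medians were 3 and 22 UMIs and the shares at 0 were 6.91% and 0.0133%. The young median was 7 in the high, 6 in the middle and 7 in the low band, against 1 in each band of control, and it was 6 (2 to 21) without the other blood cells. At full depth, the 10% of young cells with most of these UMIs held 33.5% of them, and the other blood cells 32.0%. The top 10% in young held 22.2% at full depth without the other blood cells, so that the UMIs were not confined to cells with markers of another blood cell type. These shares also depend on the UMI totals of the cells. After thinning, the mean over young cells was 11.3 UMIs with and 8.09 UMIs without the other blood cells, and over control cells 1.31 and 1.23 UMIs. In single genes the share of cells with a UMI of *Ifi27l2a* was 3.78% in control and 59.1% in young, or 3.37% and 55.9% without the other blood cells (7.60% and 86.8% unthinned). *Rtp4* was found in 0.879% and 38.1%, *Isg15* in 2.62% and 32.6% and *Oasl2* in 0.300% and 12.9% of the same cells. The part of free RNA in these shares was not tested.

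**Figure D4:**
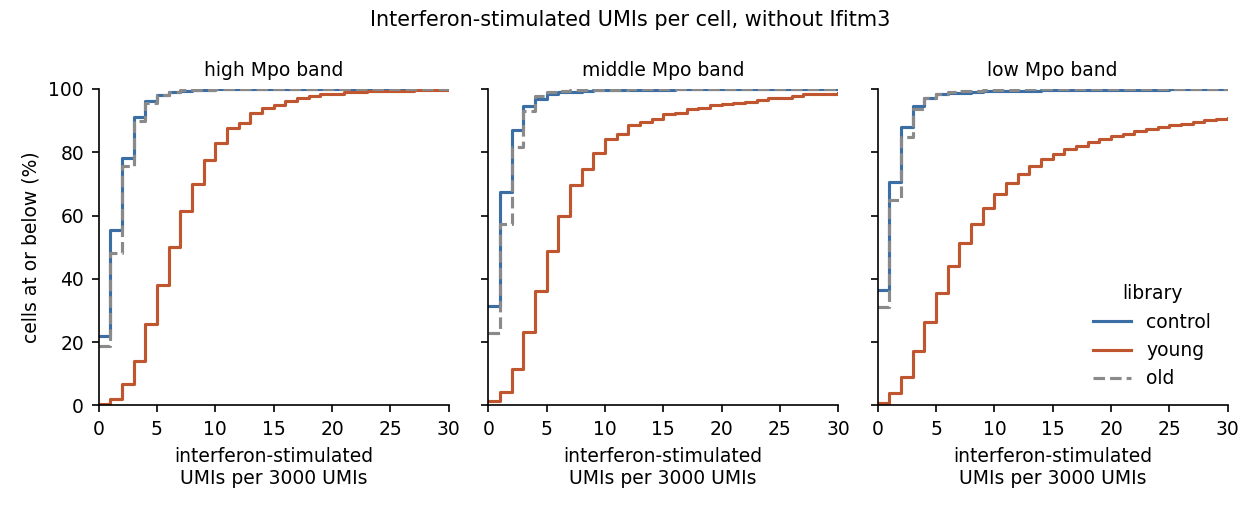
Share of cells (%, y axis) with at most the given number of interferon-stimulated UMIs, without *Ifitm3*, per 3000 UMIs of a cell (x axis), for the control, young and old library in the 3 *Mpo* bands. In each band the curve of young is shifted to the right of control, with medians of 6 or 7 against 1, and old runs beside control.

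The promoters of the interferon-stimulated genes were read from RefSeq for build GRCm38.p6, as windows of 300 bases from 250 bases before to 50 bases after a start site, and searched on both strands for the core of the ISRE, which reads GAAA, any 2 bases and again GAAA. Of the 43 genes with at least 10 CPM, 33 had a promoter in this table and 20 of them (60.6%) held the motif in at least 1 promoter. Among all genes with at least 10 CPM the motif was in 191 of 4452 (4.29%), and among all promoters in 1131 of 32851 (3.44%). A match is a description of letters and not of a bound site. Of the 10 genes with the lowest ratios, 7 had a promoter, and *Isg15* and *Ctss* held the motif, whereas *Oasl2*, *Irf7*, *Xaf1*, *Ms4a4c* and *Ms4a6c* had no match in these windows. The 200 bases before the start are shown for 5 genes whose window held the motif and which differ in its number, strand and place, 5′ to 3′ on the strand of the gene and with matches in capitals (TTTC runs mark a match on the opposite strand, and matches may overlap). They lie at chr4:156200819-156201018 (minus strand) for *Isg15*, chr19:34640689-34640888 (plus) for *Ifit1*, chr19:34583329-34583528 (plus) for *Ifit3*, chr12:26456453-26456652 (minus) for *Rsad2* and chr5:120907526-120907725 (minus) for *Oas1a*.
Isg15: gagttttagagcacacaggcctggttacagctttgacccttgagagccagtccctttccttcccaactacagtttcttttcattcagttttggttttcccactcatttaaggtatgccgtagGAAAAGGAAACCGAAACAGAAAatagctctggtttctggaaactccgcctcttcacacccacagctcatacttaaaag
Ifit1: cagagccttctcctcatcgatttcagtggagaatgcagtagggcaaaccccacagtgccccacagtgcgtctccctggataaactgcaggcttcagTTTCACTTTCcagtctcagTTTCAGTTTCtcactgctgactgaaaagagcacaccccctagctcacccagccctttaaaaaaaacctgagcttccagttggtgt
Ifit3: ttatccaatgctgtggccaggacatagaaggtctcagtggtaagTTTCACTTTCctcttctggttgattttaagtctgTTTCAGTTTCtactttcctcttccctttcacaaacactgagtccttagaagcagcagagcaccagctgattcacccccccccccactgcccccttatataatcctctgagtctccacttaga
Rsad2: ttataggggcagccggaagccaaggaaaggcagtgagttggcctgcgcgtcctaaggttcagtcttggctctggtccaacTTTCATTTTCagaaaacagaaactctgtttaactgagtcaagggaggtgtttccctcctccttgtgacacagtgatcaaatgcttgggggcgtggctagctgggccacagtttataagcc
Oas1a: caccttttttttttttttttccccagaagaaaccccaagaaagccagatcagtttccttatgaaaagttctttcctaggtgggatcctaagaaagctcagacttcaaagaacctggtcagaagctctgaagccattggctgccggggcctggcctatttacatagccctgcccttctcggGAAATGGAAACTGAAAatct

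The 3 overlapping matches of *Isg15* begin 78, 72 and 66 bases before the start, those of *Ifit1* at 104 and 85, those of *Ifit3* at 156 and 122, that of *Rsad2* at 120 and those of *Oas1a* at 20 and 14. *Ifit1* and *Ifit3*, which encode proteins that bind foreign RNA, had 0.990 and 0.344 CPM in control against 38.3 and 20.4 CPM in young (-5.27 and -5.89). *Rsad2*, the enzyme viperin, which makes a chain-terminating nucleotide, had 0.542 against 20.7 CPM (-5.26). *Oas1a*, which makes the 2′-5′ oligoadenylates that activate RNase L, had 10.4 against 87.6 CPM (-3.07). The gene with the most matches was not the one with the lowest ratio among these.

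The pathway above these genes differed less. Of 22 interferon ligands, receptors and signalling genes, 8 had at least 10 CPM, of which 2 were lower in control (6.69% of all genes tested) and none higher, with a median log2 ratio of -0.31. Once the other blood cells were left out 2 of 8 were lower and the median was -0.18. Of the lower genes, *Irf9*, which is itself induced by interferon, had 8.11 against 42.6 CPM (-2.39, -2.51 to -2.28) and reached the minimum only through young. The receptor subunits *Ifnar2* (33.5 against 41.2 CPM, -0.30), *Ifngr1* (103 against 124 CPM, -0.27) and *Ifngr2* (32.4 against 40.5 CPM, -0.32) and the kinase *Jak1* (47.2 against 56.5 CPM, -0.26) were within the limit. *Irf3*, a factor that drives interferon itself, had 20.9 and 21.2 CPM (-0.02, -0.12 to 0.07). Interferon transcripts were hardly seen in either library, since *Ifng* had 0 UMIs in control and 8 in young and *Ifnb1* had 0 UMIs in both, which allows up to 0.0384 CPM in control and 0.0516 CPM in young.

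MHC class I molecules present peptides on nearly every cell, and their genes are inducible by interferon. Of 19 genes of this pathway 17 had at least 10 CPM, and 16 of them were lower in control (6.69% of all genes tested), with a median log2 ratio of -1.19. Some reached the minimum only through young, and of the 14 genes with at least 10 CPM in control 13 were lower, beside 3.27% of all genes with that level in control. *B2m*, the shared light chain, had 1036 CPM in control, 2442 CPM in young and 959 CPM in old (-1.24, -1.25 to -1.23). The heavy chains *H2-K1* (139 against 411 CPM, -1.56) and *H2-D1* (690.3 against 1404 CPM, -1.02) and the peptide transporter *Tap1* (12.3 against 46.6 CPM, -1.92) went the same way, and the lowest ratio was that of the nonclassical *H2-Q6* (1.74 against 17.3 CPM, -3.32). H2 genes resemble each other closely, so that reads can be split between them and the single ratios are uncertain. The immunoproteasome subunits *Psmb8* (-0.97), *Psmb9* (-1.19) and *Psmb10* (-0.80) and the activator *Psme1* (-0.67) were lower in control too, whereas of the 31 subunits of the constitutive proteasome none was past the limit in either direction, with a median of 0.08. Only *Tapbpl* (-0.49) of the 17 was within the limit. Without the other blood cells 13 of the 17 genes were lower and the median was -1.10. In cells thinned to 3000 UMIs the median number of MHC class I UMIs was 7 in control, 16 in young and 8 in old, and 15 in young without the other blood cells.

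Some genes moved more with the other blood cells. *Ctss*, the cathepsin of antigen-presenting cells, had 4.11 CPM in control and 79.8 CPM in young (-4.28), and -3.49 without the other blood cells. *Ms4a6c*, a marker of monocytes by which those cells were counted, had 5.58 and 85.7 CPM (-3.94), and -2.61 without them. Of 5 genes of the Ms4a family of membrane proteins with at least 10 CPM, 4 were lower in control (6.69% of all genes tested) and reached the minimum only through young. The fifth, *Ms4a3* of promyelocytes, had 1049 and 852 CPM (0.30). Once the other blood cells were left out, *Ms4a3* was the 1 member of the family with at least 10 CPM. *Ms4a4c* then had 0.274 CPM in control and 7.71 CPM in young, below the minimum. Its ratio hardly moved, from -4.95 with all kept cells to -4.82. The chemokines *Ccl5* (-4.79) and *Ccl9* (-2.51) were the 2 of 15 listed cytokines with at least 10 CPM, which both reached only in young. *Ccl5* was also one of the markers by which NK and T cells were counted. Cathepsin C (*Ctsc*), which activates granule proteases, had 11.9 and 41.6 CPM (-1.81), but a log2 ratio of 0.10 without the other blood cells. The basophil protease *Prss34* had 47.5 and 221 CPM (-2.22), and -1.64 without the other blood cells. It was a marker by which basophil and mast cells were counted, so that a smaller difference without them follows from the selection.

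Several genes of the late steps of neutrophil maturation were lower in control. Of 12 genes of gelatinase granules and late maturation 8 had at least 10 CPM, of which 5 were lower (6.69% of all genes tested) and 1 higher in control (1.82%), with a median log2 ratio of -0.82. After the other blood cells were left out 5 were lower and 0 higher, and the median was -0.74. *Retnlg*, a resistin-like protein of mature neutrophils, had 465 CPM in control, 1032 CPM in young and 1393 CPM in old (-1.15, -1.17 to -1.14). The collagenase *Mmp8* had 41.4 against 105 CPM (-1.34), the gelatinase *Mmp9* 54.9 against 86.7 CPM (-0.66) and the chemokine *Ccl6* 11.3 against 84.0 CPM (-2.89). These 4 genes were lower in control in each band. The decoy receptor *Il1r2* was higher in control (75.2 against 48.3 CPM, 0.64), yet its ratio was -0.10 in the high band and 0.55 without the other blood cells. The chemokine receptor *Cxcr2* of mature neutrophils (37.8 against 27.5 CPM, 0.46) and the receptor *Csf3r* of the growth factor G-CSF (45.8 against 45.98 CPM, -0.01) were within the limit. Of the 10 genes of specific granules with at least 10 CPM none was past the limit (median 0.11), and of the 11 of azurophil granules *Ctsc* alone was. *Mpo* itself, which set the bands, had 2043 and 2450 CPM, *Elane* 7117 and 7348 CPM and lactoferrin (*Ltf*) 5065 and 5121 CPM. Of the 8 S100A genes with at least 10 CPM, 3 were lower in control (6.69% of all genes tested). Some of these reached the minimum only through young, since of the 6 with that level in control 1 was lower, beside 3.27% of all genes. The 3 were *S100a10* (-3.43), *S100a4* (-3.41) and *S100a6* (-1.14), with ratios of -2.25, -2.29 and -0.95 without the other blood cells. Of these 3 genes 1 was then below the minimum, so that 2 of 7 S100A genes were lower, beside 3.87% of all genes. *S100a8* and *S100a9*, the subunits of calprotectin, had ratios of 0.03 and 0.09.

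Some histone genes, most of which are expressed as DNA replicates, were lower in control. Of 75 histone genes 35 had at least 10 CPM, and 12 were lower (6.69% of all genes tested) and none higher in control, with a median of -0.50. With the other blood cells left out 13 were lower and the median was -0.46. The count rested on genes near the minimum, since of the 24 histone genes with at least 10 CPM in control 2 were lower, beside 3.27% of all genes with that level in control. The lowest were *Hist2h2ac* (8.56 against 17.1 CPM), *Hist1h3d* (-0.98) and *Hist3h2a* (-0.91). Histone genes resemble each other, so that reads can be split between them. Of the 24 genes of DNA replication and S phase and the 28 genes of mitosis none was past the limit, with medians of -0.09 and -0.10, and their difference from the histone genes was not tested. Transcripts of these histones mostly lack a poly(A) tail, on which the kit captures RNA.

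**Figure D5:**
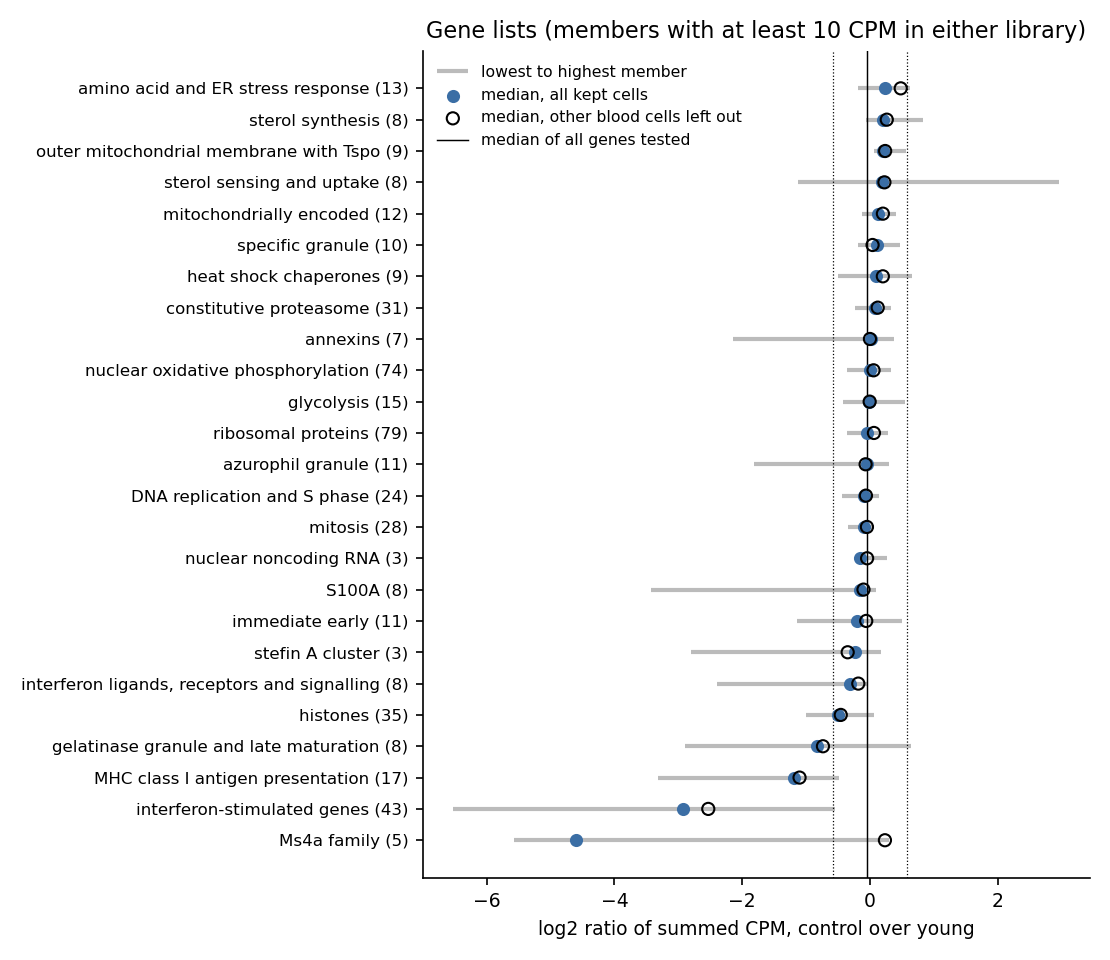
Log2 ratio of control over young (x axis) for gene lists (y axis, with the number of members with at least 10 CPM in either library), as the median with all kept cells (filled), the median without the other blood cells over the members that then have at least 10 CPM (open) and the range of the members with all kept cells (grey). The interferon-stimulated genes have a median of -2.93, and the Ms4a family moves from -4.61 to 0.23 with 1 member left.

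The 10 highest ratios were taken over genes that reached 50 CPM in control or young and lay on 1 side of 0 in each band. They belonged to *Pim1*, *Lilr4b*, *Lilrb4a*, *Srm*, *Ccr1*, *Ifitm6*, *Pirb*, *Lrrc59*, *Ube2s* and *Lrg1*. Of these, *Pim1*, *Lilr4b*, *Srm*, *Ccr1* and *Lrrc59* reached 50 CPM only through control. *Pim1*, a serine/threonine kinase induced by cytokines, had 100.2 CPM in control, 31.2 CPM in young and 147 CPM in old (1.68, 1.62 to 1.75). It was found in 23.4% of control and 8.63% of young cells after thinning (49.3% and 21.8% unthinned), and its ratio ran from 1.59 to 1.78 over the bands. *Lilrb4a* and *Lilr4b*, receptors of the leukocyte immunoglobulin-like family, had 169 against 73.1 CPM (1.21) and 82.7 against 32.0 CPM (1.37). They lie on chromosome 10 at overlapping places and are near copies, so that their ratios are not independent and each is uncertain. The paired receptor *Pirb* had 231 against 107 CPM (1.11), with the same doubt from its paralogs. *Ccr1*, a receptor of inflammatory chemokines, had 51.5 against 22.8 CPM (1.18), with a ratio of 0.40 in the high band and 1.25 in the low band. *Ifitm6*, a myeloid member of the Ifitm family, had 1988 CPM in control, 908 CPM in young and 3751 CPM in old (1.13, 1.12 to 1.14), opposite to *Ifitm3*. *Lrg1*, a glycoprotein of granules, had 730.4, 387 and 1415 CPM (0.91). *Pim1*, *Lilr4b*, *Lilrb4a*, *Ccr1*, *Ifitm6*, *Pirb* and *Lrg1* were still higher in old. *Srm* (spermidine synthase, 65.8, 28.8 and 22.4 CPM) and *Lrrc59* (72.4, 35.2 and 57.6 CPM) were highest in control, as was *Ube2s* (635, 317 and 470.0 CPM), a ubiquitin-conjugating enzyme of mitosis whose gene overlaps *Rpl28* on the other strand.

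*Srm* and some other genes had lower ratios in the low band than in the high and the middle band. Apart from *Srm*, the following were chosen after their values were seen, for this pattern, and stand for themselves only. *Srm* had a log2 ratio of 1.38 in the high, 1.68 in the middle and 0.71 in the low band, and *Odc1*, the enzyme before it in polyamine synthesis, 1.02, 1.25 and 0.39. Nucleostemin (*Gnl3*), a nucleolar GTPase, had 113 CPM in the high band of control and 44.4 CPM in that of young (1.34), with 1.58 in the middle band and 0.00 in the low band. Nucleophosmin (*Npm1*) had 1086 CPM in the high band of control and 605 CPM in that of young (0.85), with 0.84 in the middle and -0.25 in the low band. Without the other blood cells *Npm1* had 0.89, 1.09 and 0.29 and *Gnl3* 1.44, 2.26 and 0.63 in the high, middle and low band, so that the direction in the low band turned for *Npm1*. The old library had 688 CPM of *Npm1* and 60.4 CPM of *Gnl3* in its high band, between the other two.

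A few genes of the stress responses were past the limit. Of 13 genes of the amino acid and ER stress response with at least 10 CPM, 3 were higher in control (1.82% of all genes tested) and none lower, with a median of 0.24, or 0.48 with 4 higher genes without the other blood cells. The 3 were the transcription factors *Atf4* (67.8 against 43.8 CPM, 0.63) and *Xbp1* (215 against 141 CPM, 0.61) and the ER protein *Sdf2l1* (303 against 201 CPM, 0.59), all close to the limit of 0.58. The most abundant, the ER chaperone *Hspa5*, had 397 against 271 CPM (0.55), within the limit. Of 9 heat shock chaperones with at least 10 CPM, 1 was higher in control (1.82% of all genes tested) and none lower. This was the mitochondrial *Hspd1* (122 against 77.0 CPM, 0.66), with a ratio of 1.12 in the high and 0.03 in the low band. Its partner *Hspe1* had 1.01 and -0.25. The median of the list was 0.09 over all kept cells, -0.25 in the low band, and 0.20 with 2 higher genes without the other blood cells, and *Dnajb1* had the lowest ratio of the 9 (-0.50). The inducible *Hspa1a* had 0.375 CPM in control and 9.92 CPM in young (-4.72), below the minimum of 10 CPM. Among 11 immediate early genes *Btg2* (-1.14), *Zfp36* (-0.66) and *Ier5* (-0.61) were lower in control (6.69% of all genes tested) and none higher, with a median of -0.20, or -0.06 with 1 higher and 2 lower genes without the other blood cells.

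Some genes that the study followed with age also differed between these libraries, which share an age. *Fdps*, the farnesyl diphosphate synthase of the mevalonate pathway, had 190.0 CPM in control, 106 CPM in young and 371 CPM in old, a log2 ratio of control over young of 0.84 (0.80 to 0.87). It was higher in control in the high (0.65), middle (0.79) and low band (1.03) and without the other blood cells (0.86), and was found in 36.5% of control and 22.6% of young cells after thinning (66.0% and 49.4% unthinned). Of 8 genes of sterol synthesis with at least 10 CPM, *Fdps* and the isomerase *Idi1* before it (18.1 against 10.96 CPM, 0.72) were higher (1.82% of all genes tested) and none was lower, with a median of 0.20, and without the other blood cells 2 were higher with a median of 0.26. Among genes of sterol sensing and uptake, the endothelial lipase *Lipg* had 44.0 CPM in control, 5.64 CPM in young and 107 CPM in old (2.97, 2.82 to 3.12), and was found in 12.4% of control and 1.45% of young cells (29.2% and 4.35% unthinned). *Lipg* was below the 50 CPM required for the 10 highest genes. *Insig1* was also higher (0.64), and *Npc2*, a lysosomal carrier of cholesterol, lower in control (-1.12, or -0.60 without the other blood cells). Of the 8 genes of this list with at least 10 CPM, 2 were thus higher (1.82% of all genes tested) and 1 lower (6.69%). *Tspo*, a cholesterol-binding protein of the outer mitochondrial membrane, had 1184 against 798 CPM (0.57, 0.55 to 0.58), just within the limit, and 1772 CPM in old. Its ratio was 0.63 without the other blood cells and 0.64 in the low band, which are past the limit. *Anxa1* had 3250 against 2939 CPM (0.15), and the annexins *Anxa6* (-2.14, or -0.81 without the other blood cells) and *Anxa5* (-0.82, or -0.50) were lower in control. These were 2 of 7 annexins with at least 10 CPM (6.69% of all genes tested). Of the 6 annexins with that level in control 1 was lower, beside 3.27% of all genes. Without the other blood cells 6 annexins had at least 10 CPM in either library and 0 were lower, beside 3.87% of all genes. *Anxa6* was then below the minimum.

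Lists of ribosomal, respiratory and glycolysis genes lay close to the median of all genes. The 9 genes around *Tspo* in the outer mitochondrial membrane, with *Tspo* among them, all lay above 0, as did 9 of 12 mitochondrially encoded genes. Of all 5725 genes tested, 3380 lay below 0. None of 79 ribosomal protein genes (median -0.04), 74 nuclear subunits of oxidative phosphorylation (0.00), 12 mitochondrially encoded genes (0.12), 15 genes of glycolysis (-0.01) and 9 genes around *Tspo* in the outer mitochondrial membrane (0.20) was past the limit in either direction with all kept cells, and without the other blood cells this held for each but the last, of which 2 were higher. Lactate dehydrogenase A (*Ldha*) came closest among the glycolysis genes, with 617 against 423 CPM (0.54). Of the outer membrane genes, 2 of 10 were higher in the high and in the middle band and 1 of 9 in the low band. Of 15 glycolysis genes 2 were higher in the high and 1 in the middle band, where 2 of 12 mitochondrially encoded genes were also higher. Over all genes tested, 5.17%, 4.9% and 1.48% were higher in the high, middle and low band. Y-linked RNA was found in both libraries, with 28.8 and 37.5 CPM of *Eif2s3y*, while *Xist*, which female cells make, had 10 and 5 UMIs. Of 6 listed genes that can differ between substrains of C57BL/6, *Wdfy1* had 34.8 CPM in control, 9.86 CPM in young and 38.7 CPM in old (1.82, 1.70 to 1.94), and *Nnt*, the mitochondrial transhydrogenase, 16.5, 9.48 and 13.8 CPM (0.80, 0.67 to 0.93). *Cyfip2* had 67.1 and 68.4 CPM (-0.03) and *Ide* 11.4 and 10.3 CPM (0.15). The labels give no substrain. The study names C57BL/6N for the profile with the cell number of the control library, and a difference in substrain cannot be told apart from the other differences between the libraries.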

How the data were processed

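Per the labels and the study's methods, single CD133+ cells sorted from mouse bone marrow were sequenced with Chromium 3′ v2 chemistry, and the submitters' processing notes name Cell Ranger 2.1.0, STAR and mm10. The authors deposited 1 filtered matrix per library of raw UMI counts for 27998 genes, with no cell annotation. Cells were filtered as described above, no doublets were called, and the upper percentile of UMIs was the only step that removes cells of very high totals. UMIs were summed per library and band. Genes that reached 10 CPM in control or young were compared against a limit of 1.5 times, with exact conditional binomial 95% intervals for ratios and Clopper-Pearson intervals for shares. With 1 library a side there is no test. Since levels are sums, more cells of a type cannot be told apart from more RNA per cell. The work was done in Python 3.11.15 with pandas 2.3.3, scipy 1.17.1, numpy 2.4.6 and matplotlib 3.10.9. The script was tested on simulated data, in which 200 of 200 changed genes passed the limit in the right direction. That run is a check of the script only. The share of real differences that the limit finds in these libraries was not tested. Named were the 10 highest and 10 lowest ratios among genes with at least 50 CPM and the same direction in the bands, up to 4 leading members and the most abundant member of each list, the genes the study names and the sex-linked and substrain-linked genes, apart from those stated to be chosen after their values were seen. The comparison, the members and the lists were chosen with earlier results of these data known. Promoters are RefSeq's on GRCm38.p6. The alternatives were other cell filters, band edges, scalings, minimums and limits, equal weights for the bands and leaving out the other blood cells. Counts of list members with at least 10 CPM in control were added after seeing the data. Some members of the lists are counted but not reported here by name.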

Additional observations from a re-analysis of the deposited data

Results flagged for a closer look

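The filter on UMI totals left out cells of the young library that carried markers of another blood cell type more often than the control library's, in data that the comparison does not use. Below the 5th percentile, 54 of 418 young cells (12.9%, exact binomial interval 9.86 to 16.5) carried such markers, against 22 of 544 control cells (4.04%, 2.55 to 6.06). Above the 95th percentile, the numbers were 119 of 419 young cells (28.4%, 24.1 to 32.98) and 23 of 544 control cells (4.23%, 2.70 to 6.28). The cells above the 95th percentile had 3461 CPM of the erythroid markers in young and 169.5 CPM in control. Interferon-stimulated genes summed to 12216 CPM in young and 2334 CPM in control below the 5th percentile, and to 4114 and 1021 CPM above the 95th percentile, so that young was higher in the cells left out as well.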

How the results depend on the processing

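No paired analysis was possible because each condition is 1 library. Beside the 104 higher and 383 lower genes with all kept cells, there were 159 and 215 without the other blood cells, 35 and 94 with a minimum of 50 CPM, 175 and 1026 with a minimum of 2 CPM, and 19 and 204 with a limit of 2 times, and 218 were higher with the bands weighted equally. A minimum of 50 CPM gave 146 higher and 91 lower genes in the high band, 103 and 78 in the middle band and 32 and 120 in the low band. Band edges of 20 and 80 gave 488 higher genes in the middle band, and the low band had 194 lower genes without the other blood cells. Of the lists, 12 interferon-stimulated genes were lower with a minimum of 50 CPM, among 94 lower genes in all. With a limit of 2 times 10 MHC class I genes were lower, among 204 in all. A higher minimum leaves fewer members to compare, so that a smaller count there is not a smaller share. Sterol synthesis had 4 higher genes with the bands weighted equally, 1 with a minimum of 50 CPM and 0 with a limit of 2 times. Over all genes 218, 35 and 19 were higher at these settings. Late maturation had 0 higher genes without the other blood cells, with the bands weighted equally and with a limit of 2 times, where 3 were lower. The Ms4a median turned from -4.61 to 0.23 without the other blood cells, where 1 gene was left. The high, middle and low bands held 6.74%, 13.7% and 79.5% of control and 11.4%, 10.1% and 78.5% of young cells with edges of 20 and 80, 16.2%, 12.6% and 71.1% of control cells with no filter, and the low band 72.7% of young cells without the other blood cells. Interferon-stimulated UMIs with *Ifitm3* averaged 14.8 per 10000 in control and 60.6 in young, 13.2 and 50.7 when not thinned, and 14.4 and 47.8 without the other blood cells. With no filter, 1.41% of control and 12.1% of young cells were other blood cells. Beyond the settings that leave out cells or genes by construction, the cause of these shifts was not tested. With 1 library a side, the spread between libraries cannot be measured at any depth.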

Other observations

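Of the stefin A cluster, a family of cysteine protease inhibitors, 3 genes had at least 10 CPM, and 1 was lower in control (6.69% of all genes tested). Of the 2 with that level in control 0 were lower. The lower gene, *Gm5483*, reached the minimum only through young (2.87 against 20.1 CPM, -2.81), while the old library had 104 CPM. This order, with old highest and control lowest, was also that of *Retnlg*, *Mmp8*, *Mmp9* and *S100a6*. Of the 3 nuclear noncoding RNAs with at least 10 CPM none was past the limit, with a median of -0.15. Of the 6 stem and progenitor cell markers 1 had at least 10 CPM, which it reached only in young, and was lower in control. The list summed to 10.4 CPM in control and 20.3 CPM in young. The macrophage markers summed to 39.7 and 73.3 CPM, and to 39.5 and 69.1 CPM without the other blood cells. Eosinophil markers summed to 5.36 and 8.29 CPM and mesenchymal markers to 0.729 and 1.23 CPM. Among cells counted as other blood cells, the mean number of interferon-stimulated UMIs without *Ifitm3* per 3000 UMIs was 8.87 in 108 control cells and 37.1 in 836 young cells, so that these cells differed in the same direction as the rest. The old library had 5.48 in 120 such cells.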
